A study of Mus musculus with 10 samples.

Results

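The 38 genes described here encode the enzymes, carriers and regulators that build fatty acids and break them down in mitochondria and peroxisomes, taken as a fixed list of 38 symbols from the 55487 genes in the deposited table. All 38 were found and all 38 passed the filter on low counts, against 18956 genes in all. They fall into 10 roles, from activation of the free acid through the carnitine shuttle, β-oxidation, electron transfer and the peroxisome to 2 regulators and 7 genes of synthesis. RNA was sequenced from whole ovaries of C57BL/6J mice in 3 groups. Control mice (n = 4) were 8 weeks old and received saline, Aged mice (n = 3) were labelled 11 months old and received saline, and Aged+CF mice (n = 3) had the same age and received CEFFE, a cell-free protein extract of fat tissue (200 μL at 3 μg/μL by the tail vein, on alternate days). Mice of all 3 groups were given 10 IU of PMSG, a gonadotropin that drives follicle growth, 48 h before the ovaries were taken. The comparisons ask whether the RNA of these genes differed with age and, in old mice, with the extract. The comparison of Aged with Control and that of Aged+CF with Aged share the 3 Aged ovaries, so opposite signs in them are not independent of each other. In what follows, a fold change of Aged is taken against Control and one of Aged+CF against Aged, unless another group is named.

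Long-chain fatty acids are built in the cytosol. Acly makes acetyl-CoA from citrate, the acetyl-CoA carboxylases make malonyl-CoA, Fasn joins these units to palmitate, and Elovl6 and the Scd desaturases lengthen and desaturate it. For breakdown, the Acsl enzymes attach coenzyme A, Cpt1a, Slc25a20 and Cpt2 carry the acyl group into mitochondria, and a repeating cycle of dehydrogenation, hydration, dehydrogenation and thiolysis shortens it, while peroxisomes shorten very long and branched chains. In the ovary, oocytes and cumulus cells oxidise fatty acids during maturation, and luteal cells hold large stores of cholesterol esters and lipid for steroid synthesis.

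The sequences directly upstream of 4 genes are printed to show the control regions of genes that behaved differently in the ovaries. Acly, Acsl4 and Ehhadh were higher in Aged than in Control, while Fasn, the synthase itself, had the same mean in both groups; these 4 were chosen after their values were seen, among windows that touch no annotated exon. RefSeq promoters on GRCm38.p6 were found for 33 of the 38 genes, and not for Acaa2, Decr1, Hsd17b4, Scd1 and Scd2. Each sequence is the 250 bases before the annotated start, on the minus strand: Acly chr11:100528001-100528250, Acsl4 chrX:142390536-142390785, Ehhadh chr16:21787835-21788084 and Fasn chr11:120824548-120824797. Capitals mark matches to the motifs described after them.
Acly: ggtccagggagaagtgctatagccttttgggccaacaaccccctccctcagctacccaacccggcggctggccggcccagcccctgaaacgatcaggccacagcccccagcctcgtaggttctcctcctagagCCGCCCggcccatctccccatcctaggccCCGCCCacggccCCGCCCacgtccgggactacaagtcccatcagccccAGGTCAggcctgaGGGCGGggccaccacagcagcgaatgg
Acsl4: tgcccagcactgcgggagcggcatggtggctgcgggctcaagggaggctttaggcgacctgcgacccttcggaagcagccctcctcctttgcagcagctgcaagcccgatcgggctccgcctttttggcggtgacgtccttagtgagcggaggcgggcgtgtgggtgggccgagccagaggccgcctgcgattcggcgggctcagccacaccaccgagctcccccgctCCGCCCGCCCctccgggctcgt
Ehhadh: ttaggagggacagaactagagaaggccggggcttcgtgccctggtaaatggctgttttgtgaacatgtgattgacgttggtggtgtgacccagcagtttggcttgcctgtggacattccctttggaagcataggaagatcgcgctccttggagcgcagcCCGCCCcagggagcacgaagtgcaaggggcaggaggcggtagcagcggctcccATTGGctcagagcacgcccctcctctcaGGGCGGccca
Fasn: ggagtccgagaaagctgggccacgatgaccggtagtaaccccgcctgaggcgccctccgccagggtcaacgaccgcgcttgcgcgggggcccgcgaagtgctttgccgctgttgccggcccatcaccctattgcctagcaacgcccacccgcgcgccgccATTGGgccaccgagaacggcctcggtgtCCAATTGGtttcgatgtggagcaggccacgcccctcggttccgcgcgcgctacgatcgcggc
Motifs were searched on both strands. A gene with several starts has several windows and was counted once, if any of them held the motif. The NF-Y box (CCAAT) was present in 15 of the 33 genes (45.5%), against 37.5% of all RefSeq genes with windows of this length, and the GC box (GGGCGG) in 20 of the 33 (60.6%), against 35.4%. The nuclear receptor half-site (AGGTCA) was present in 6 of the 33 (18.2%), against 15.8%. None of the 33 genes held the E-box (CACGTG, 6.86% of all genes) or the orphan receptor site (CAAGGTCA, 1.51%), which contains the half-site. The sterol element of the LDL receptor gene and the direct repeat of half-sites spaced by 1 base were also absent from the 33, and were present in 0.0814% and 0.0407% of all genes. Each was searched as 1 exact pattern, too rare for its absence from 33 genes to be informative, and variant sites were not searched. The Acly window held 4 GC boxes and 1 half-site, the Acsl4 window 2 overlapping GC boxes, the Ehhadh window 1 NF-Y box and 2 GC boxes, and the Fasn window 3 NF-Y boxes, of which 2 overlap. A match here is a run of letters and not a shown binding site.

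The count tables summed to 15761789 reads in the shallowest ovary and 21318254 in the deepest. Levels are given as CPM, the usual per-library scaling of counts, with library sizes adjusted by TMM, and differences as log2 fold changes with their standard errors (SE) from edgeR. The rule for a call was a 1.5-fold change in either direction with an unadjusted p under 0.05, and the adjusted p is given beside it. Aged ovary 34 stood apart from Aged ovaries 31 and 33. Its 10 luteal and steroidogenic markers summed to 19680 CPM, against 34380 and 47950 in ovaries 31 and 33, and its B and plasma cell markers reached 1151 CPM, against 204.5 and 124. Other marker sums also differed. Theca and stroma markers were at 3856 CPM against 1732 and 1212, and oviduct epithelium markers at 437.9 against 93.53 and 34.43. Muscle markers were at 2430 CPM against 999.1 and 1254, and oocyte markers at 72.95 against 224.1 and 222. White adipocyte markers, at 584.4 CPM, lay between 851.7 and 522.7. All 10 luteal markers were called higher in Aged than in Control, at summed levels of 7500 to 14500 CPM in Control, 19680 to 47950 in Aged and 17720 to 27740 in Aged+CF. In whole ovaries, fewer cells of a type and less RNA per cell cannot be told apart.

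Most fatty acid genes had positive fold changes in Aged ovaries, and few passed the call rule. The fold change was positive for 34 of the 38 genes and negative for 4, with a median log2 fold change of 0.31, while the median over all 18956 genes was -0.0005. At the call rule, 9 of the 38 genes were called (23.7%), against a background of 18.2% of all genes, so the share was near the background. Of these, 8 were higher (Acsl1, Acsl4, Acsl5, Echs1, Ehhadh, Scd1, Scd2 and Acly, against 8.79% of all genes) and 1 was lower (Acacb, against 9.44%). At the adjusted p, 5 were called (background 11.1%), with Acsl5, Echs1, Ehhadh and Acly higher and Acacb lower. Of these, Acsl5, Ehhadh and Acacb passed it when any single ovary was left out, Echs1 in 6 and Acly in 3 of the 10 fits. An unadjusted p under 0.05 was reached by 19 of the 38 genes, against 31.6% of all genes. The groups did not overlap for 9 genes, against 27.5% of all genes.

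**Figure D1:**
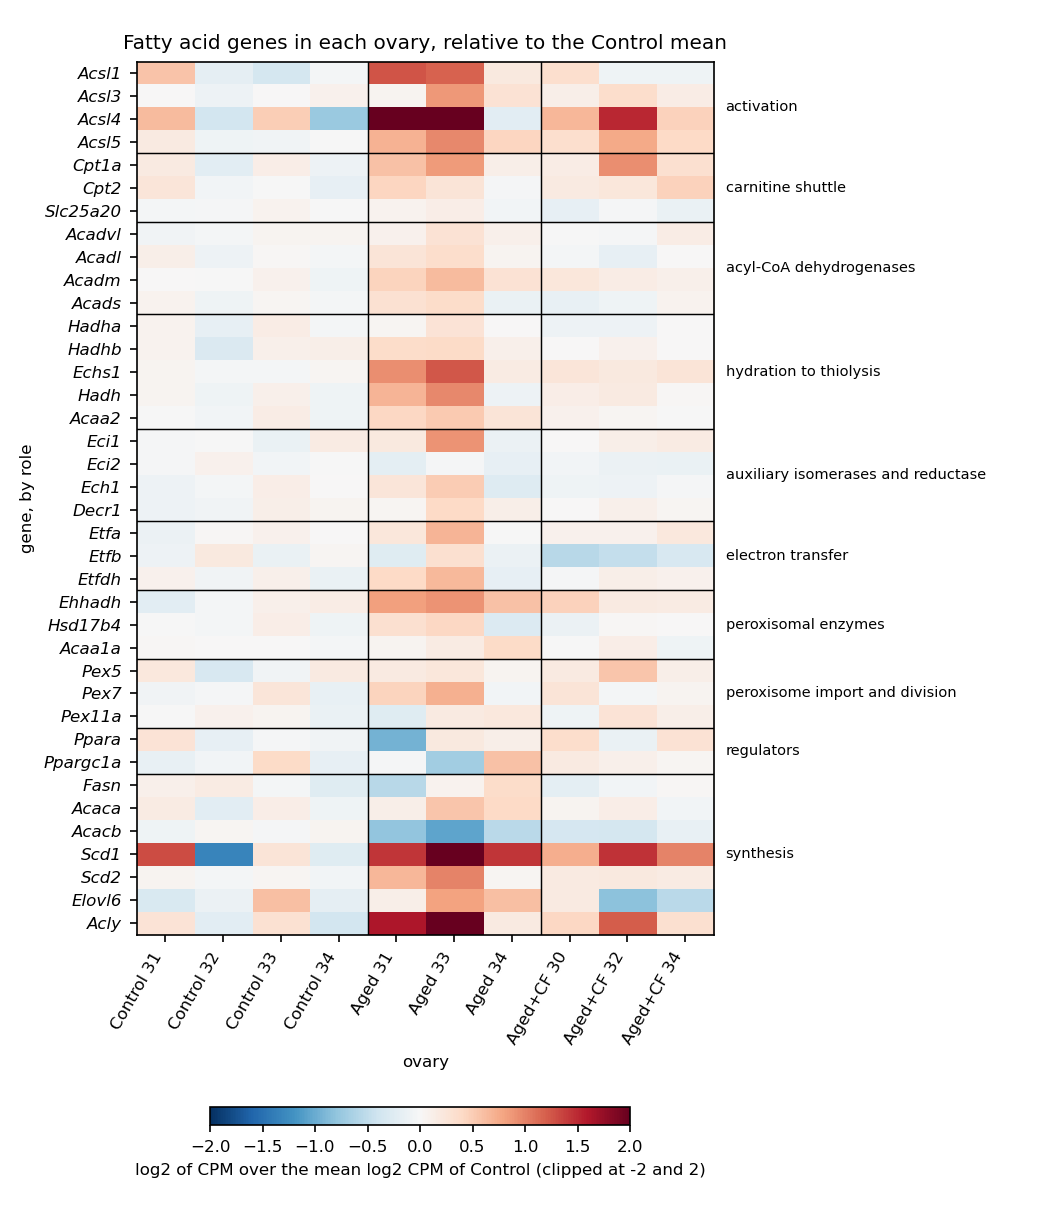
Level of the 38 fatty acid genes (rows, by role) in each of the 10 ovaries (columns), as log2 CPM minus the mean log2 CPM of the 4 Control ovaries, with colours clipped at -2 and 2. Aged ovaries 31 and 33 carry most of the red, Aged ovary 34 is paler in most rows, and Acacb is blue in all 3 Aged ovaries.

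The comparison of Aged+CF with Aged asks whether CEFFE moved these genes in old ovaries. The fold change was negative for 31 of the 38 genes and positive for 7, with a median of -0.25 on the log2 scale against -0.02 over all genes. Only 3 genes were called, all lower (Acsl1, Echs1 and Elovl6), which is 7.89% of the list against 7.96% of all genes, and none was called higher. Of all genes, 4.05% were called lower and 3.91% higher. None of the 38 passed the adjusted p in edgeR (background 0.00528%), while 10 had an unadjusted p under 0.05 (background 16.3%). The groups did not overlap for 8 of the 38 genes, against 18.6% of all genes.

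These counts depended on which Aged ovaries entered the fit. Without Aged ovary 34, 13 genes were called in Aged vs Control (12 higher and 1 lower, all 13 also at the adjusted p), against 22.1% of all genes, and 9 in Aged+CF vs Aged (1 higher and 8 lower), against 12.2%. In that second comparison Acacb, Acsl1, Echs1, Hadh and Scd2 then passed the adjusted p. So did 556 of all 19342 genes tested in that fit, against 1 gene with all ovaries included. In Aged vs Control, 3112 of those 19342 genes were called at the adjusted p. Without Aged ovary 33, 6 genes were called in Aged vs Control, against 17.2% of all genes. None was called in Aged+CF vs Aged, where 7.89% of all genes were still called. Of the 38 genes, Aged ovary 33 had the highest level of the 3 Aged ovaries for 31, and Aged ovary 34 the lowest for 24. Aged ovary 33 also had the lowest TMM factor of the 10 ovaries, 0.8708 against 0.9701 and 1.003 in Aged ovaries 31 and 34. A lower factor raises every CPM of that ovary, so this order depends partly on the scaling. The coefficient of variation between ovaries had a median over the 38 genes of 22.3% in Aged, 8.31% in Control and 7.3% in Aged+CF. A wider spread in Aged was not particular to these genes. Across genes as a whole, pairs of Aged ovaries differed with a chi-square per degree of freedom of 41.46 to 106. Pairs of Control ovaries were at 15.66 to 25.54 and pairs of Aged+CF ovaries at 15.74 to 33.65.

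**Figure D2:**
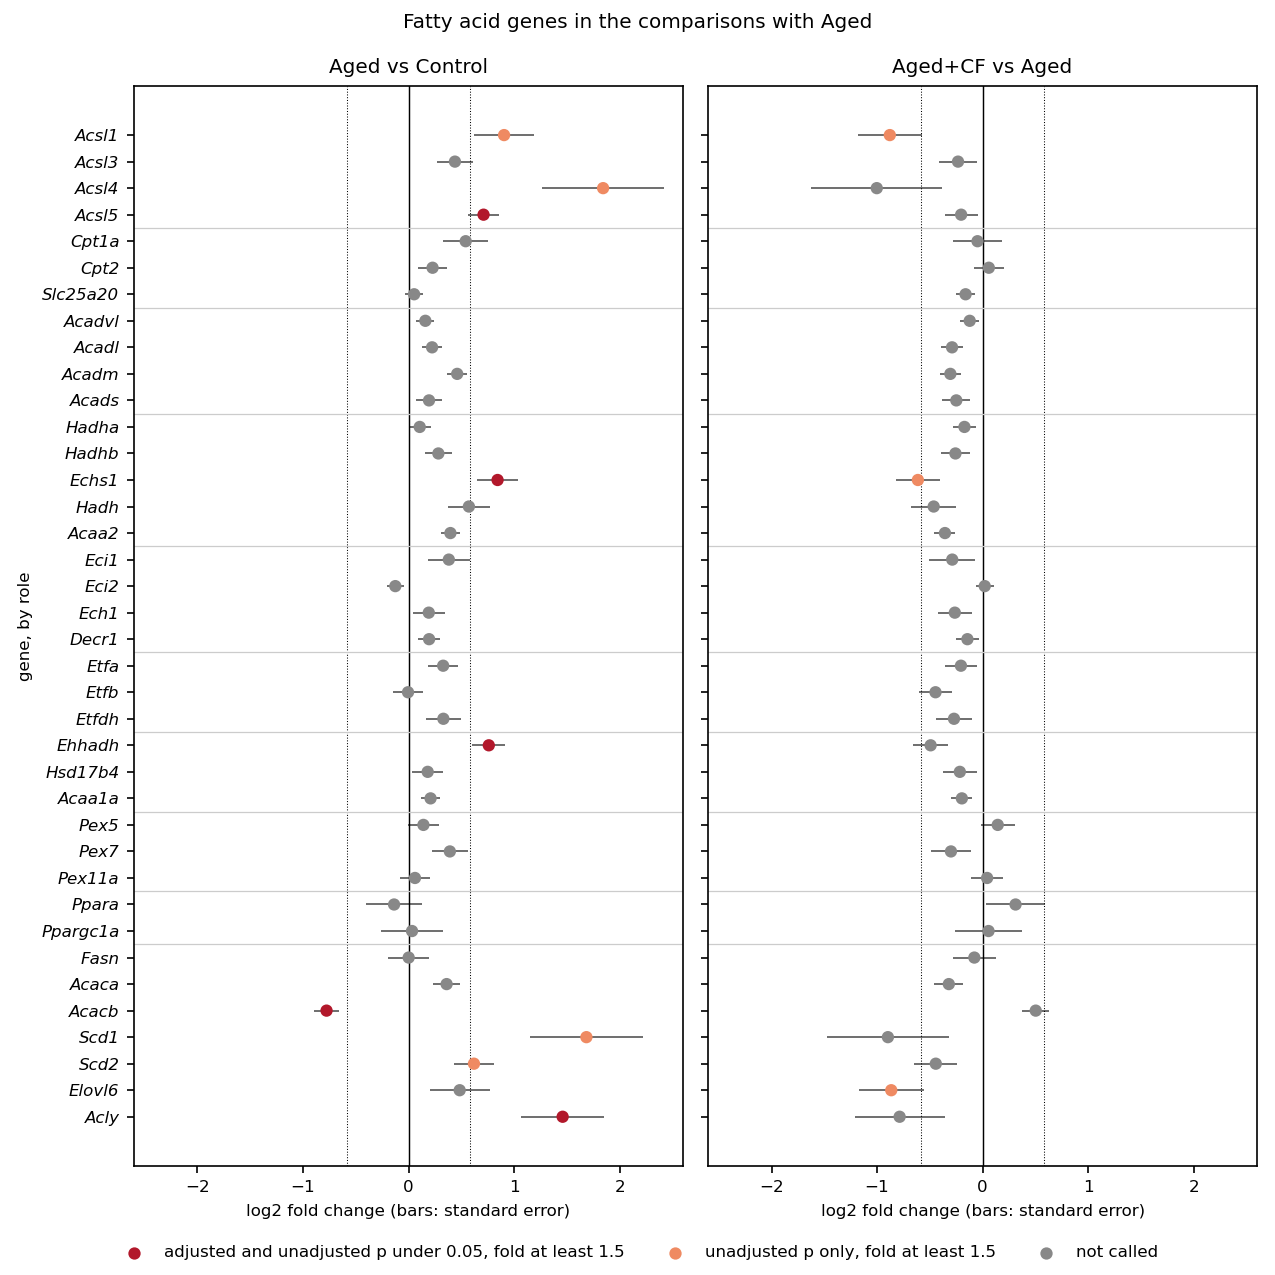
Log2 fold change (points) and its standard error (bars) for the 38 genes, by role, in Aged vs Control (left) and Aged+CF vs Aged (right). Dotted lines mark a fold change of 1.5. Acly, Acsl4 and Scd1 lie farthest right in Aged vs Control and Acacb farthest left.

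Activation of fatty acids was the role with the largest share of called genes, 3 of 4 in Aged vs Control, against 18.2% of all genes. At the adjusted p only 1 of these 4 was called (Acsl5), against 11.1% of all genes, and a share of 4 genes is coarse. Acsl4, the acyl-CoA synthetase that prefers arachidonic acid (chrX:142317993-142390535), had the largest fold change of the 38 genes. It was at 263, 131, 238 and 102 CPM in Control ovaries 31 to 34, at 770, 1059 and 147 CPM in Aged ovaries 31, 33 and 34, and at 270, 483 and 233 CPM in Aged+CF ovaries 30, 32 and 34. Aged ovaries 31 and 33 were above every other ovary, while Aged ovary 34 lay within the Control range and below all 3 Aged+CF ovaries. Acsl4 was called higher in Aged, with a log2 fold change of 1.84 (SE 0.58, adjusted p = 0.0563), and was not called in Aged+CF, at -1.003 (SE 0.62, adjusted p = 0.443). Without Aged ovary 33 the call in Aged was lost, at 1.36.

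Acsl1, the synthetase that serves both fat storage and oxidation (chr8:46471037-46536051), was the only gene of the role called in both comparisons. It was at 35.1, 21.1, 18.6 and 23.1 CPM in Control, at 56.8, 53.8 and 27.1 CPM in Aged, and at 30.1, 22.3 and 22.4 CPM in Aged+CF. Aged ovaries 31 and 33 again exceeded all others, and Aged ovary 34 lay among the Control and Aged+CF ovaries. Acsl1 had a log2 fold change of 0.91 in Aged (SE 0.28, adjusted p = 0.0558) and of -0.88 in Aged+CF (SE 0.31, adjusted p = 0.220). The latter call was lost without Aged ovary 31, Aged ovary 33, Aged+CF ovary 32 or Aged+CF ovary 34. Exons of Gm45244 lie on the opposite strand.

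Acsl5, a synthetase of mitochondria and endoplasmic reticulum (chr19:55251938-55297720), separated Aged from Control fully. It was at 65.5, 54.7, 55.3 and 57.5 CPM in Control, at 94.3, 114 and 78.2 CPM in Aged, and at 73.4, 98.5 and 76.5 CPM in Aged+CF. All 3 Aged and all 3 Aged+CF ovaries were above the highest Control ovary, and Aged and Aged+CF overlapped. Its log2 fold change was 0.71 in Aged (SE 0.15, adjusted p = 0.0138) and -0.20 in Aged+CF (SE 0.16, adjusted p = 0.537), and Aged+CF stood 0.51 above Control (SE 0.15, adjusted p = 0.180), short of the fold limit. The call in Aged was lost with total count scaling, and exons of Zdhhc6 lie on the opposite strand. Acsl3, the synthetase of nascent lipid droplets, was not called in either comparison, at 0.44 (SE 0.17) and -0.23 (SE 0.18).

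The carnitine shuttle, which admits acyl groups to mitochondria, had no called gene among its 3. Cpt1a, the outer membrane transferase that malonyl-CoA inhibits and the most abundant of the 3 per length (42.3 FPKM on average over the 10 ovaries), was at 333, 257, 324 and 276 CPM in Control, at 446, 533 and 321 CPM in Aged, and at 327, 561 and 369 CPM in Aged+CF. The highest single ovary was Aged+CF ovary 32, and each group overlapped both others. Cpt1a had a log2 fold change of 0.54 in Aged (SE 0.22, 95% interval 0.06 to 1.02, adjusted p = 0.116) and of -0.05 in Aged+CF (SE 0.23, interval -0.56 to 0.47, adjusted p = 0.936). Aged+CF stood 0.49 above Control (SE 0.22, adjusted p = 0.338). Cpt2, the inner membrane transferase, was at 0.23 (SE 0.13) and 0.06 (SE 0.14), and Slc25a20, the carnitine-acylcarnitine carrier, at 0.05 (SE 0.08) and -0.16 (SE 0.09).

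The acyl-CoA dehydrogenases open each turn of the mitochondrial cycle, each for its own chain length. All 4 had positive fold changes in Aged (log2 0.16 to 0.46) and negative ones in Aged+CF (-0.12 to -0.31), and none reached a fold change of 1.5. Acadm, for medium chains, was at 114, 114, 121 and 108 CPM in Control, at 155, 177 and 140 CPM in Aged, and at 133, 127 and 122 CPM in Aged+CF. The 3 groups did not overlap, with Aged highest and Control lowest. The log2 fold change of 0.46 in Aged (SE 0.09) had an adjusted p of 0.0134, although it was below the fold limit, and that in Aged+CF was -0.31 (SE 0.10, adjusted p = 0.209).

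Acadl, for long chains and the most abundant of the 4 at 78.1 FPKM, was at 166, 144, 157 and 150 CPM in Control, at 184, 197 and 160 CPM in Aged, and at 150, 138 and 154 CPM in Aged+CF. All Aged ovaries were above all Aged+CF ovaries, while Aged and Control overlapped. Acadl had log2 fold changes of 0.22 in Aged (SE 0.10, adjusted p = 0.141) and -0.29 in Aged+CF (SE 0.10, adjusted p = 0.226). Acadvl, for very long chains, and Acads, for short chains, lay at 0.16 (SE 0.09) and 0.19 (SE 0.12) in Aged and at -0.12 (SE 0.09) and -0.25 (SE 0.13) in Aged+CF.

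Hydration to thiolysis completes the turn. Echs1, the short-chain enoyl-CoA hydratase (chr7:140105710-140116476), was called in both comparisons. It was at 150, 141, 141 and 149 CPM in Control, at 276, 342 and 163 CPM in Aged, and at 171, 166 and 173 CPM in Aged+CF. Control and Aged+CF ovaries each held to a narrow range, Aged ovaries 31 and 33 were far above both, and Aged ovary 34 lay between Control and Aged+CF. Echs1 had a log2 fold change of 0.84 in Aged (SE 0.20, adjusted p = 0.0203) and of -0.61 in Aged+CF (SE 0.21, adjusted p = 0.219), and without Aged ovary 33 the latter was -0.37 and no longer called, and total count scaling also ended that call. Exons of Paox lie on the opposite strand of the Echs1 locus, and the sources used here do not say that reads were counted by strand. The same holds for Dvl2 at Acadvl, Garem2 at Hadha, Gm16984 at Eci2, 4930579G24Rik at Etfdh and Myd88 at Acaa1a, and Utp14b shares exon positions with Acsl3 on the same strand.

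Acaa2, the mitochondrial thiolase, was the second most abundant of the 38 genes per length at 105 FPKM. It was at 191, 185, 213 and 182 CPM in Control, at 256, 276 and 229 CPM in Aged, and at 205, 199 and 191 CPM in Aged+CF. All 3 Aged ovaries were above all 7 others, and Control and Aged+CF overlapped. For Aged, a log2 fold change of 0.40 (SE 0.09) had an adjusted p of 0.0212 but was below the fold limit, and for Aged+CF the value was -0.36 (SE 0.10, adjusted p = 0.176).

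Hadh, the short-chain hydroxyacyl-CoA dehydrogenase, was not called, at 0.57 in Aged (SE 0.20, adjusted p = 0.0782) and -0.46 in Aged+CF (SE 0.21, adjusted p = 0.317). Its Aged ovaries were at 311, 379 and 182 CPM, and the last of these, ovary 34, was below all 4 Control ovaries (184 to 210 CPM). Hadha and Hadhb, the α and β subunits of the trifunctional protein that takes long chains through the same steps, differed less, at 0.11 (SE 0.10) and 0.28 (SE 0.13) in Aged and -0.17 (SE 0.11) and -0.26 (SE 0.14) in Aged+CF.

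The auxiliary enzymes, which rearrange the double bonds of unsaturated chains, had no called gene among 4. Ech1, a dienoyl-CoA isomerase and the most abundant of them at 48.8 FPKM, was at 140, 146, 165 and 150 CPM in Control, at 178, 212 and 125 CPM in Aged, and at 142, 140 and 147 CPM in Aged+CF. The extremes were both in Aged, with ovaries 31 and 33 the highest of the 10 and ovary 34 the lowest. Ech1 was at 0.19 in Aged (SE 0.15) and -0.26 in Aged+CF (SE 0.16) on the log2 scale. Eci1 and Decr1 were at 0.38 (SE 0.20) and 0.20 (SE 0.10) in Aged, and Eci2, which acts mostly in peroxisomes, at -0.12 (SE 0.08). In Aged+CF their values were -0.29 (SE 0.22), -0.14 (SE 0.11) and 0.02 (SE 0.08).

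Electron transfer flavoprotein (Etfa and Etfb) and its dehydrogenase (Etfdh) pass electrons from the acyl-CoA dehydrogenases to the respiratory chain. Etfa, the most abundant of the 3 per length, was at 102, 113, 117 and 110 CPM in Control, at 130, 176 and 110 CPM in Aged, and at 117, 117 and 127 CPM in Aged+CF. Only Aged ovaries 31 and 33 exceeded the others, and Aged ovary 34 was within the Control range. Etfa had a log2 fold change of 0.33 in Aged (SE 0.14, adjusted p = 0.141) and of -0.21 in Aged+CF (SE 0.15, adjusted p = 0.520). Etfdh was at 0.33 (SE 0.16) and -0.27 (SE 0.18).

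Etfb, the partner subunit, had another pattern. It was at 71.8, 88.3, 70.5 and 79.7 CPM in Control, at 65.0, 96.1 and 71.0 CPM in Aged, and at 52.4, 55.8 and 62.1 CPM in Aged+CF. All 3 Aged+CF ovaries were below all 7 others. Etfb had a log2 fold change of -0.0046 in Aged (SE 0.14) and of -0.45 in Aged+CF (SE 0.15, adjusted p = 0.219). Aged+CF also stood at -0.45 against Control (SE 0.14, adjusted p = 0.216), below the fold limit in each. Gm45233 and Mir7051 share exon positions with Etfb on the same strand.

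In the peroxisome, Ehhadh, the bifunctional hydratase and dehydrogenase (chr16:21761287-21787807), was higher with age. It was at 5.78, 6.48, 7.15 and 7.42 CPM in Control, at 11.8, 12.4 and 9.98 CPM in Aged, and at 9.23, 7.58 and 7.45 CPM in Aged+CF. The groups did not overlap, with Aged highest, Aged+CF between and Control lowest, although the lowest Aged+CF and the highest Control ovary were nearly equal. Ehhadh had a log2 fold change of 0.76 in Aged (SE 0.15, adjusted p = 0.0136) and of -0.49 in Aged+CF (SE 0.17, adjusted p = 0.216).

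Hsd17b4, the second bifunctional enzyme and the most abundant of the 3 at 38.7 FPKM, was at 147, 143, 162 and 138 CPM in Control, at 184, 197 and 122 CPM in Aged, and at 136, 149 and 148 CPM in Aged+CF. As for Ech1, Aged ovaries 31 and 33 were the 2 highest and Aged ovary 34 the lowest of the 10. Hsd17b4 was not called, at 0.18 in Aged (SE 0.15) and -0.22 in Aged+CF (SE 0.16). Acaa1a, a peroxisomal thiolase with a close copy in Acaa1b, was at 0.21 (SE 0.09) and -0.20 (SE 0.10).

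Peroxisome import and division had no called gene among 3. Pex5, the receptor that brings enzymes with a C-terminal signal into the peroxisome, was at 111, 77.1, 91.1 and 109 CPM in Control, at 109, 112 and 100 CPM in Aged, and at 109, 142 and 104 CPM in Aged+CF. The groups overlapped, and Aged+CF ovary 32 was the highest. Pex5 was at 0.14 in Aged (SE 0.15) and 0.14 in Aged+CF (SE 0.16). Pex7, the receptor for the N-terminal signal, was at 0.39 (SE 0.17) and -0.30 (SE 0.19), and Pex11a, a peroxisome division factor, at 0.06 (SE 0.14) and 0.04 (SE 0.15).

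The regulators were at low levels. Ppara, the nuclear receptor that drives oxidation genes in liver, was at 11.96, 8.79, 9.69 and 9.38 CPM in Control, at 5.13, 11.4 and 10.7 CPM in Aged, and at 12.6, 9.02 and 12.1 CPM in Aged+CF. Aged ovary 31 was below all others, and the groups overlapped. Ppara had log2 fold changes of -0.14 in Aged (SE 0.26, interval -0.72 to 0.45) and 0.31 in Aged+CF (SE 0.28, interval -0.31 to 0.94). Ppargc1a, the coactivator of mitochondrial biogenesis, had the lowest level of the 38 genes at 0.339 FPKM, with 1.69 to 4.08 CPM over the 10 ovaries and fold changes of 0.03 (SE 0.29) and 0.06 (SE 0.31).

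The 7 synthesis genes did not move together. Against Control, Acly, Scd1 and Scd2 were called higher in Aged and Acacb lower. Acly, ATP-citrate lyase (chr11:100476353-100528000), was at 486, 349, 501 and 313 CPM in Control, at 1239, 1707 and 456 CPM in Aged, and at 536, 931 and 506 CPM in Aged+CF. Aged ovaries 31 and 33 were above every other ovary, Aged ovary 34 was within the Control range, and all 3 Aged+CF ovaries were above all 4 Control ovaries. Acly had a log2 fold change of 1.46 in Aged (SE 0.39, adjusted p = 0.0346) and of -0.79 in Aged+CF (SE 0.43, adjusted p = 0.382).

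Malonyl-CoA comes from 2 carboxylases, and their fold changes had opposite signs. Acacb, the isoform at the mitochondrial surface whose malonyl-CoA restrains Cpt1a (chr5:114146535-114250761), was at 61.5, 66.8, 64.0 and 67.5 CPM in Control, at 37.5, 31.4 and 44.8 CPM in Aged, and at 51.7, 50.7 and 58.8 CPM in Aged+CF. The 3 groups did not overlap, with Aged lowest, Aged+CF between and Control highest. Acacb was the only one of the 38 genes called lower in Aged, with a log2 fold change of -0.78 (SE 0.12, adjusted p = 0.00628). In Aged+CF it had the highest fold change of the 38 genes, 0.50 (SE 0.13, adjusted p = 0.167), below the fold limit, and stood at -0.27 against Control (SE 0.12, adjusted p = 0.340). Acaca, the cytosolic isoform that feeds synthesis, was at 86.9, 66.7, 85.04 and 72.7 CPM in Control, at 83.9, 113.9 and 102.1 CPM in Aged, and at 80.7, 85.1 and 74.4 CPM in Aged+CF. Its groups overlapped, and the log2 fold changes were 0.36 in Aged (SE 0.13, adjusted p = 0.0851) and -0.32 in Aged+CF (SE 0.14, adjusted p = 0.293).

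Fasn, fatty acid synthase (chr11:120805846-120824547), was at 452, 470, 408 and 356 CPM in Control, at 285, 442 and 538 CPM in Aged, and at 366, 405 and 428 CPM in Aged+CF. Aged held both the lowest and the highest of the 10 ovaries, and Aged ovary 34, low for Acly and Acsl4, was the highest for Fasn. Fasn had a log2 fold change of 0.00 in Aged (SE 0.19, interval -0.43 to 0.43) and of -0.08 in Aged+CF (SE 0.21, interval -0.54 to 0.38). Changes within those intervals are not excluded by these ovaries.

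The stearoyl-CoA desaturases place the double bond of oleate and palmitoleate. Scd2, the most abundant of the 38 genes per length at 243 FPKM (chr19:44293674-44306864), was at 1536, 1433, 1524 and 1417 CPM in Control, at 2342, 2950 and 1522 CPM in Aged, and at 1672, 1690 and 1648 CPM in Aged+CF. Control and Aged+CF were tight and did not overlap, Aged ovaries 31 and 33 were above both, and Aged ovary 34 was within Control. Scd2 was called higher in Aged, with a log2 fold change of 0.62 (SE 0.19, adjusted p = 0.0538), just past the fold limit, and was at -0.44 in Aged+CF (SE 0.21, adjusted p = 0.319). Without Aged ovary 33 the former was 0.42 and no longer called, and total count scaling also ended the call. Mir5114 shares exon positions with Scd2.

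Scd1 (chr19:44394455-44407879), lower per length than Scd2 at 25.3 FPKM, was at 153, 24.6, 73.6 and 51.9 CPM in Control, at 165, 400 and 166 CPM in Aged, and at 102, 167 and 123 CPM in Aged+CF. All 3 Aged ovaries exceeded all 4 Control ovaries, but Control itself spanned a wide range. Within Control, Scd1 had the same order as the white adipocyte markers, which summed to 708.7, 238.2, 450.1 and 287.5 CPM in ovaries 31 to 34. In Aged the order differed, with sums of 851.7, 522.7 and 584.4 CPM and Scd1 highest in the ovary with the lowest sum. A link of Scd1 to fat tissue in the samples was not tested. Scd1 was called higher in Aged, with a log2 fold change of 1.69 (SE 0.54, adjusted p = 0.0594), and was at -0.90 in Aged+CF (SE 0.58, adjusted p = 0.461). Without Aged ovary 33 the former was 1.15 and the call was lost. Scd1 and Scd2 belong to a family of similar genes, and how reads matching several of them were counted is not given in the sources used here.

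Elovl6, the elongase of palmitate to stearate (chr3:129532355-129638495), was called only in Aged+CF vs Aged; whether the 2 comparisons differ was not tested. It was at 110, 125, 205 and 119 CPM in Control, at 146, 235 and 206 CPM in Aged, and at 153, 76.4 and 92.5 CPM in Aged+CF. Aged+CF ovaries 32 and 34 were the 2 lowest of the 10, and Aged+CF ovary 30 lay within the Aged range. Elovl6 had a log2 fold change of 0.48 in Aged (SE 0.29, adjusted p = 0.279) and of -0.87 in Aged+CF (SE 0.31, adjusted p = 0.229). The latter call was lost without Aged+CF ovary 32 or 34, or without Aged ovary 33. Exons of Gm35986 lie on the opposite strand.

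**Figure D3:**
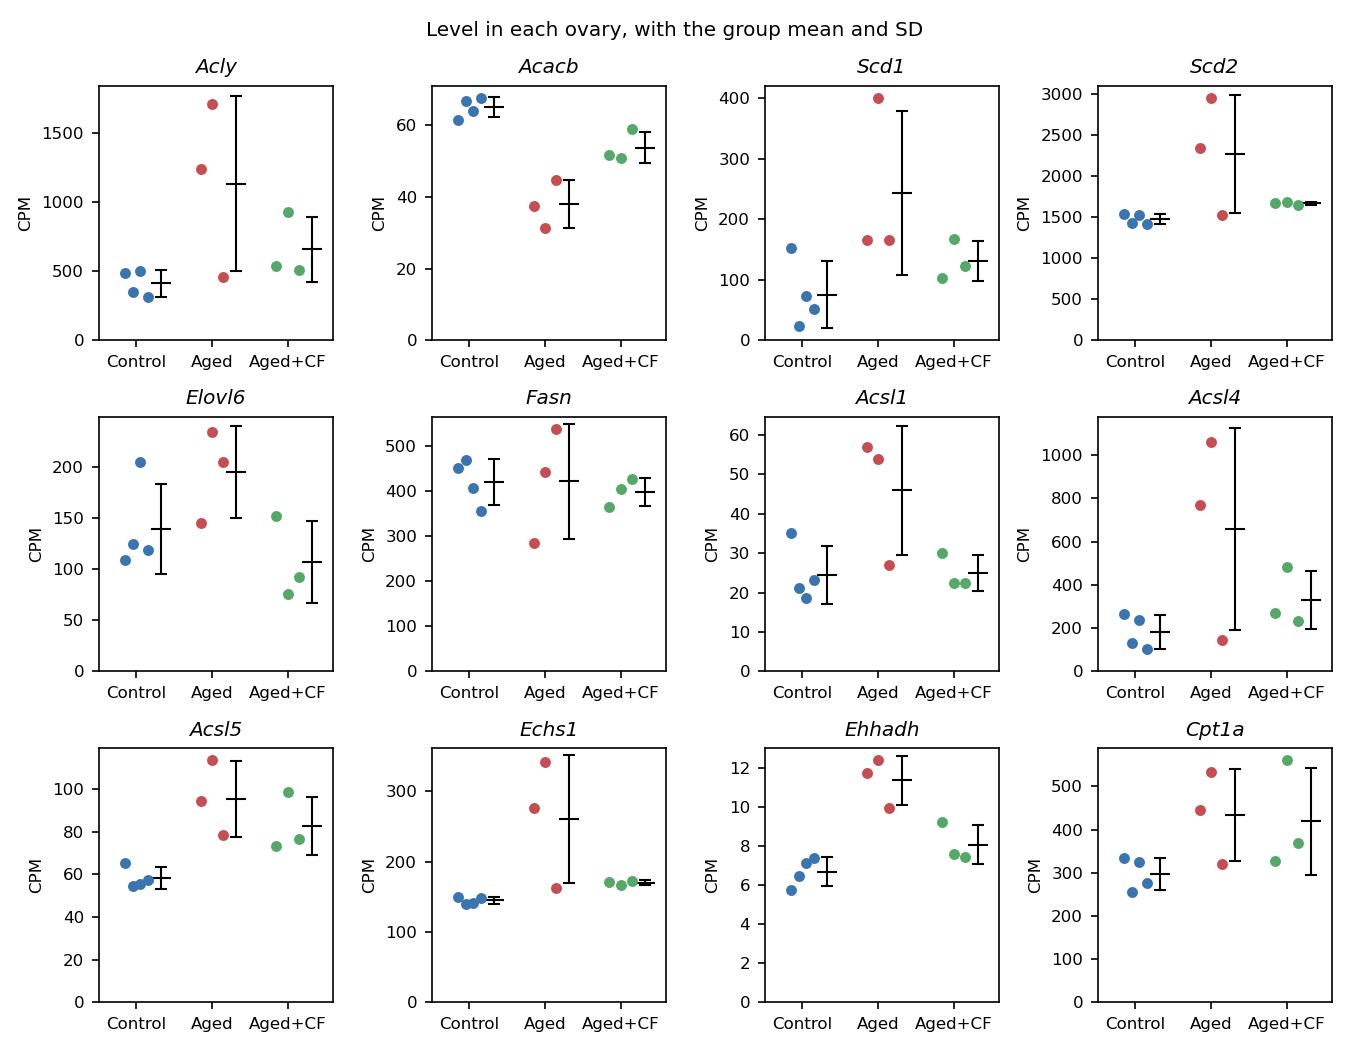
CPM of the 10 genes called in Aged or in Aged+CF, and of Fasn and Cpt1a, in each ovary (points), with the group mean and SD (bars) over 4 Control, 3 Aged and 3 Aged+CF ovaries. For Acly, Acsl4, Scd2 and Echs1 the lowest Aged point lies near or among the Control points, while Acacb separates all 3 groups.

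The level of synthesis genes was also set against that of 22 oxidation enzymes (the shuttle, the 4 steps of the cycle, the auxiliary enzymes, electron transfer and the peroxisomal enzymes) within each ovary. The deposited FPKM of the 7 synthesis genes summed to 332 ± 35.0 in the Control ovaries (SD, n = 4), to 516 ± 146 in the Aged ovaries (SD, n = 3) and to 385 ± 32.5 in the Aged+CF ovaries (SD, n = 3). That of the 22 oxidation enzymes summed to 614 ± 31.1, 689 ± 73.7 and 614 ± 5.47 in the same order. Synthesis sums were 530, 654 and 363 FPKM in Aged ovaries 31, 33 and 34, of which the last lay within the Control range of 299 to 365. On the scale of mean log2 CPM, synthesis minus oxidation was 1.12 ± 0.20 for Control, 1.37 ± 0.16 for Aged and 1.24 ± 0.07 for Aged+CF (SD), and all 3 groups overlapped. With the median over genes in place of the mean it was 0.55 ± 0.35, 1.078 ± 0.56 and 0.52 ± 0.23, so that Aged+CF then lay below Control instead of above it, and the larger difference in Aged came with a larger spread. Summed FPKM is led by Scd2 and Acly, and it was scaled to the total count rather than by TMM.

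**Figure D4:**
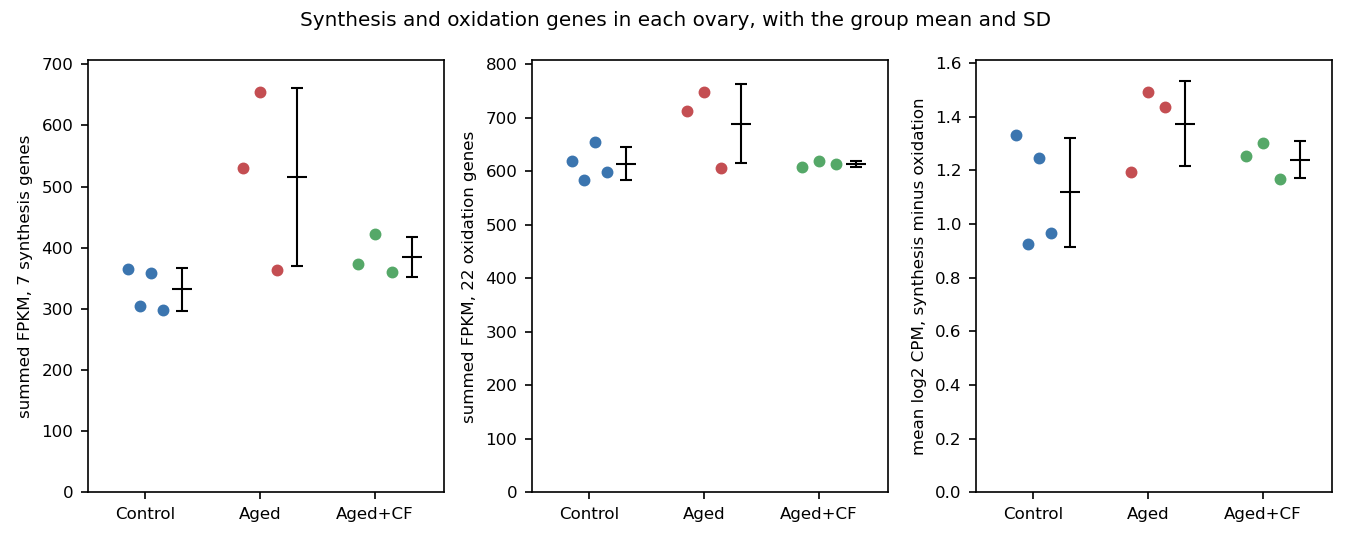
Summed FPKM of the 7 synthesis genes, summed FPKM of the 22 oxidation enzymes, and the difference of their mean log2 CPM, in each ovary (points) with the group mean and SD (bars). Aged ovaries 31 and 33 have the 2 highest sums in both FPKM panels, and the third panel shows the groups overlapping.

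Aged+CF vs Control compares old ovaries after CEFFE with young ones. None of the 38 genes was called in edgeR, against 7.69% of all genes, none passed the adjusted p (0.179% of all genes), and 4 had an unadjusted p under 0.05 (14.3% of all genes). These were Acsl5 and Cpt1a with positive and Etfb and Acacb with negative fold changes, as given beside each gene. The DESeq2 Wald test also called none, while the fit on only the compared groups called 1, the fit with the replicate number as a block called 6, and fits that left out 1 ovary called 0 to 3, none of them at the adjusted p. For the Wald, compared-groups and block fits the share of all genes called was not computed, so their counts have no background. The median log2 fold change was 0.07, and the groups did not overlap for 10 genes, against 21.9% of all genes.

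Of 136 other genes of fatty acid metabolism, 127 passed the filter, and 32 were called in Aged against Control (25.2% against 18.2% of all genes), 27 higher and 5 lower. The list of other synthesis, elongation and desaturation genes gave 15 of these, with 14 of 33 higher and 1 lower and a median log2 fold change of 0.57. Acss2, which makes acetyl-CoA from acetate as Acly does from citrate, was at 32.1, 19.8, 30.3 and 19.8 CPM in Control, at 121, 191 and 43.5 CPM in Aged, and at 45.6, 88.5 and 44.9 CPM in Aged+CF. All Aged and Aged+CF ovaries were above all Control ovaries, and the log2 fold changes were 2.21 in Aged (SE 0.44, adjusted p = 0.0130) and -0.99 in Aged+CF (SE 0.47, adjusted p = 0.328). Acot4, a peroxisomal thioesterase of succinyl-CoA and related esters, was at 0.742 to 1.47 CPM in Control, 1.88 to 9.31 in Aged and 3.38 to 12.2 in Aged+CF, with 2.44 (SE 0.60, adjusted p = 0.0247) in Aged vs Control. It shares exon positions with other annotated transcripts on both strands. Srebf1, the factor that drives synthesis genes, was at 0.30 (SE 0.09, adjusted p = 0.0574), below the fold limit.

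On the oxidation side, Acat1, the mitochondrial thiolase of ketone bodies, was not called, at 0.44 (SE 0.14, adjusted p = 0.0582).

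Abcd2 and Pdk4 had the largest called decreases in Aged among these genes. Abcd2, a peroxisomal importer of very long acyl-CoA, was at 27.1, 23.9, 24.3 and 20.5 CPM in Control, at 14.6, 8.75 and 9.93 CPM in Aged, and at 24.5, 12.8 and 27.5 CPM in Aged+CF. Aged was below Control in all ovaries, and Aged+CF ovary 32 lay among the Aged ovaries. Abcd2 was called in both comparisons, at -1.11 in Aged (SE 0.27, adjusted p = 0.0239) and 0.96 in Aged+CF (SE 0.28, adjusted p = 0.182). Pdk4, the kinase that turns off pyruvate oxidation, was at 25.3, 32.7, 33.6 and 29.4 CPM in Control, at 15.9, 17.9 and 11.7 CPM in Aged, and at 20.9, 13.7 and 24.2 CPM in Aged+CF. Every Aged and Aged+CF ovary was below every Control ovary, and the log2 fold changes were -0.999 in Aged (SE 0.22, adjusted p = 0.0166) and 0.37 in Aged+CF (SE 0.23, adjusted p = 0.435). Cd36, a fatty acid uptake receptor, and Pparg, the nuclear receptor of fat storage, were not called, at 0.08 (SE 0.24) and -0.01 (SE 0.20), and both of these change sign under another scaling.

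In Aged+CF vs Aged, 14 of the 127 were called (11.0% against 7.96% of all genes), 3 higher and 11 lower, and none passed the adjusted p in edgeR. Thrsp, a lipogenic nuclear protein, was at 35.5, 31.5 and 28.6 CPM in Aged and 12.9, 6.78 and 12.9 CPM in Aged+CF, with Control at 6.67 to 21.7 CPM. The Aged ovaries were above both other groups, with log2 fold changes of 1.34 in Aged (SE 0.36, adjusted p = 0.0327) and -1.55 in Aged+CF (SE 0.39, adjusted p = 0.162). Ppargc1b, a coactivator of oxidation genes, was at 0.76 (SE 0.26, adjusted p = 0.219) in Aged+CF and at -0.73 (SE 0.25, adjusted p = 0.0741) in Aged, at 1.55 to 3.39 CPM over the 10 ovaries.

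The luteal markers moved with several of these genes. Acly, Acsl4 and Scd2 were in the same order as the luteal sum in the 3 Aged ovaries (ovary 33 highest, 31 next and 34 lowest), and Aged+CF ovary 32, which had the highest luteal sum of its group (27740 CPM), also had its highest Acly, Acsl4, Acsl5, Cpt1a, Scd1 and Scd2. The same ovary had the lowest Acsl1, Echs1 and Elovl6 of its group, so these called genes were not in the order of the luteal sum there. Fasn had the opposite extreme, highest in Aged ovary 34. White adipocyte markers, 13 of 13 tested and 2 called in Aged vs Control (Lipe higher and Nrg4 lower), summed to 238 to 709 CPM in Control, 523 to 852 in Aged and 398 to 533 in Aged+CF. Their fold changes were positive for 6 and negative for 7 in Aged, and positive for 1 and negative for 12 in Aged+CF. As summed FPKM they were at 31.28 to 146.7 in Control, 48.8 to 140.9 in Aged and 53.57 to 70.58 in Aged+CF. Adipoq, which defines adipocytes, was between 0.0705 and 10.4 CPM in the Aged ovaries. Oocyte markers, of which 19 of 20 were called lower in Aged vs Control, summed to 695 to 905 CPM in Control, 73.0 to 224 in Aged and 296 to 450 in Aged+CF, and macrophage markers to 536 to 634, 948 to 2134 and 842 to 953 CPM. Endothelial markers had positive fold changes for 8 of 8 in Aged (6 called, all 6 at the adjusted p) and negative ones for 8 of 8 in Aged+CF (3 called). Their sums of 407 to 508 CPM in Control, 622 to 795 in Aged and 515 to 552 in Aged+CF did not overlap, and in Aged they had the same order of ovaries as the luteal sum. T cell markers were called higher in Aged for 5 of 5 tested and lower in Aged+CF for 4 of 5, at sums of 5.83 to 8.35, 12.4 to 35.7 and 8.199 to 10.3 CPM. B and plasma cell markers were called higher in Aged for 6 of 7 and lower in Aged+CF for 6 of 7. In Aged+CF, oocyte markers had positive fold changes for 20 of 20 (5 called), and luteal markers negative ones for 8 of 10 (1 called). Of all genes, 18.2% were called in Aged and 7.96% in Aged+CF. Granulosa markers had negative fold changes in Aged for 12 of 12, of which 6 were called, at sums of 6536 to 9833, 4258 to 6420 and 3867 to 6445 CPM. The part of these cell types in the fatty acid results was not tested.

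**Figure D5:**
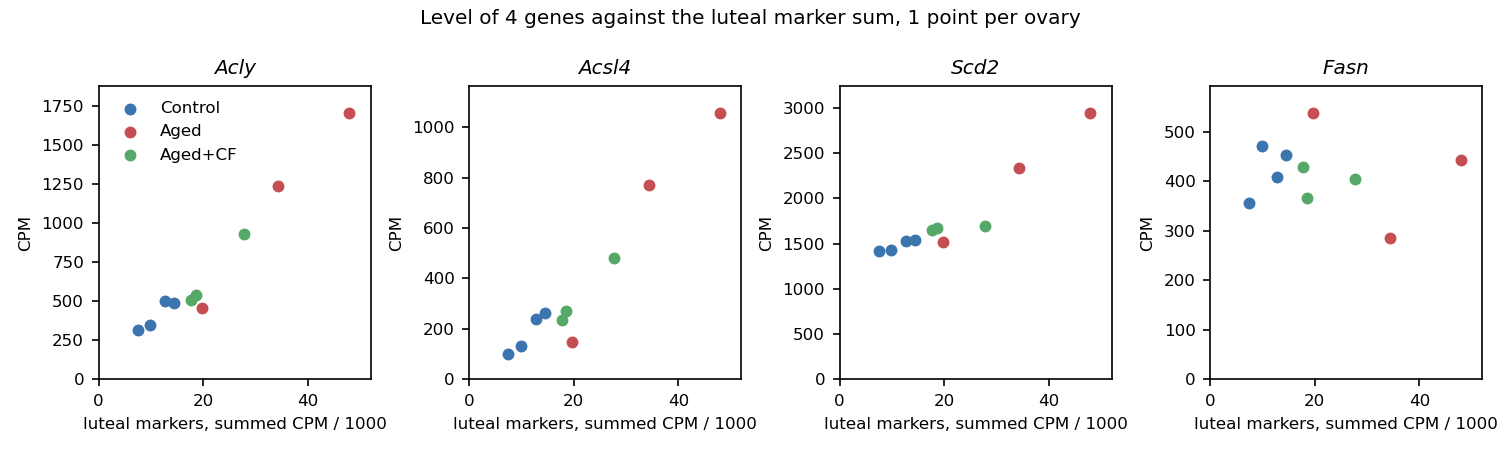
CPM of Acly, Acsl4, Scd2 and Fasn (vertical axes) against the summed CPM of 10 luteal and steroidogenic markers divided by 1000 (horizontal axes), with 1 point per ovary coloured by group. Acly, Acsl4 and Scd2 are highest in the Aged ovaries with luteal sums of 34380 and 47950 CPM, and Fasn shows no such order.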

How the data were processed

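The ovaries were grouped by their labels, and the replicate numbers in the titles were kept. The authors deposited 1 table of unnormalized read counts and FPKM values; an FPKM there is the count over the total count and over a gene length fixed across ovaries. The submitters' processing notes name TopHat, Cufflinks 2.1.1 and GRCm38.p4; the counting tool and strand setting are not given in the sources used here. Counts were tested with edgeR 4.0 in R 4.3 (TMM, edgeR's filter on low counts, quasi-likelihood F test on all 10 ovaries), with Benjamini-Hochberg adjustment over the 18956 genes tested. The study's text uses the unadjusted p in one place and the adjusted p in another, so both are given. Intervals are 95% intervals of the fit. That each ovary came from its own animal was not stated for each sample, so p-values measure the spread between these samples. The 38 genes, the roles, the 136 other genes and the marker lists were chosen with earlier results of these data known. Given in full are the genes called in either comparison with Aged, the gene with the highest FPKM in each role, the 2 largest called changes in each direction among the other genes, and Srebf1, Cd36, Pparg and Acat1, less 2 genes that are not reported here; Acadm, Acaca, Hadh and Etfb are also given by ovary, chosen after their values were seen. Positions and overlaps are from GENCODE M21 on GRCm38. The fit was tested on simulated data, and no pair of libraries was a duplicate. The alternatives tried were DESeq2 size factors, the DESeq2 1.42 Wald test, no filter on low counts, only the compared groups, the replicate number as a block, leaving out each ovary, and, added after seeing the data, total count scaling. Ratios of synthesis to oxidation were recomputed with the median, with summed FPKM and without Acacb.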

Additional observations from a re-analysis of the deposited data

Results flagged for a closer look

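A test for a single distant ovary was run in the 4 Control ovaries for 49 measures, the genes given here and the level of synthesis minus oxidation, and 5 genes were picked out; chance alone picks about 1 in 20. Hadhb was low in Control ovary 32 (17.89 CPM) and Acaa1a low in Control ovary 34 (103.5 CPM), both within a narrow group. Ppargc1a was high in Control ovary 33 (3.55 CPM). Elovl6 was high in the same ovary (205.2 CPM), at the level of Aged ovary 34, and without it the log2 fold change of Elovl6 in Aged vs Control was 0.731 in place of 0.48 and was called. Control ovary 33 and Aged ovary 34 also had the highest sums of oviduct epithelium markers, 436.6 and 437.9 CPM. Aged+CF ovary 30 came next at 138.3 CPM. Aged ovary 33, the highest of all for Elovl6, had the lowest sum at 34.43 CPM. A link of Elovl6 to oviduct tissue was not tested. Cd36 was low in Control ovary 32 (33.85 CPM). Groups of 3 ovaries were not tested in this way.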

How the results depend on the processing

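Of the calls named among the 38 genes, those of Acacb, Acsl5, Ehhadh, Acly, Acsl1 and Echs1 in Aged vs Control were made in every fit that left out 1 ovary. With DESeq2 size factors the signs of the 38 genes were 35 positive and 3 negative in Aged vs Control, and with total count scaling 29 and 9, where the median of all genes itself shifted to -0.126 and that of the 38 genes was 0.167. With 3 or 4 ovaries a group, p-values rest on the spread of few samples, and Aged ovaries 33 and 34 decide most counts. The cause of the changes listed next was not tested.

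Leaving out 1 ovary at a time, the number of the 38 genes called in Aged vs Control ranged from 6 (without Aged ovary 33) to 13 (without Aged ovary 34), and at the adjusted p from 3 to 13. For Aged+CF against Aged the ranges were 0 to 9 and 0 to 5, and against Control 0 to 3 and 0 to 0. For the other fatty acid genes they were 27 to 47, 11 to 30 and 3 to 12. Over all genes, the share called at the unadjusted p was 16.2% to 22.1%, 5.95% to 12.2% and 4.38% to 10.3%. The number of all genes called at the adjusted p was 1081 to 3112, 1 to 556 and 7 to 348. Synthesis minus oxidation ranged from 0.1923 to 0.3466, from -0.2242 to -0.07575 and from 0.05817 to 0.1935. Against main differences of 0.2565, -0.1341 and 0.1224, the median over genes gave 0.5266, -0.5625 and -0.03589, the last with the opposite sign, and leaving out Acacb gave 0.4772 in Aged vs Control.

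Small fold changes that took both signs when 1 ovary was left out were, in Aged vs Control, those of Ppara (-0.3087 to 0.177), Cd36 (-0.175 to 0.3538) and Pparg (-0.2096 to 0.1483). For Aged+CF against Aged they were those of Cpt1a (-0.3155 to 0.1256), Etfa (-0.362 to 0.001539), Pex5 (-0.006608 to 0.222), Cd36 (-0.2114 to 0.3209), Pparg (-0.3995 to 0.006556) and Acot4 (-0.647 to 0.7012). For Aged+CF against Control they were those of Acsl1 (-0.1093 to 0.2517), Hsd17b4 (-0.0654 to 0.03184), Abcd2 (-0.3362 to 0.119), Ppargc1b (-0.09723 to 0.1418) and Thrsp (-0.4184 to 0.1873).

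At the adjusted p, 10 genes were called in Aged vs Control with the DESeq2 Wald test and 3 with only the compared groups, against 5. At the unadjusted p, the latter fit called 1 gene in Aged+CF vs Control. For the Wald and compared-groups fits the share of all genes called was not computed. Their counts therefore have no background, and whether these genes were called more often than others there was not tested. Pparg turned positive in Aged vs Control with DESeq2 size factors (0.01419) and the Wald test (0.01374). Total count scaling turned Cd36 in Aged vs Control (-0.04095), Cpt1a in Aged+CF vs Aged (0.05521), and Acsl1 (-0.008571) and Ppargc1b (-0.003525) in Aged+CF vs Control, and ended the calls of Acsl5, Scd2 and, in Aged+CF vs Aged, Echs1.

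Replicate numbers are shared between the groups, but same-numbered ovaries come from different animals and their deviations did not move together (correlations of 0.138, -0.185 and 0.0696 between Aged and Control, -0.0613 between Aged+CF and Aged, and -0.0874 and 0.153 between Aged+CF and Control). With the replicate block, 8 genes were called in Aged vs Control and 0 at the adjusted p, 1 for Aged+CF against Aged and 6 against Control, and of the other fatty acid genes 26, 7 and 20. The share of all genes called with the block was not computed, so these counts have no background. In the block, Cd36 reversed in Aged vs Control (-0.00326), as did Acsl4 (0.2715), Scd1 (0.2989), Cpt1a (0.302) and Hsd17b4 (0.04025) in Aged+CF vs Aged, and Acadl (0.02062), Ech1 (0.06358), Hsd17b4 (0.1651), Acat1 (-0.01656) and Thrsp (0.116) in Aged+CF vs Control.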

Other observations

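Hadha and Hadhb encode partner subunits of 1 protein complex, yet their levels per length differed in every ovary. Hadha was at 26.7 to 34.1 FPKM and Hadhb at 2.07 to 3.10 FPKM over the 10 ovaries, with gene lengths of 10712 and 8793 bases behind the deposited values.

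Other fatty acid genes stood out by level. Me1, the malic enzyme that supplies NADPH to synthesis, was at 221 FPKM on average, near Scd2, and at 673 to 815 CPM in Control, 1323 to 2310 in Aged and 1088 to 1873 in Aged+CF ovaries. It had a log2 fold change of 1.30 (SE 0.23, adjusted p = 0.00901) against Control in Aged and 0.87 (SE 0.23, adjusted p = 0.152) in Aged+CF, and all Aged and Aged+CF ovaries were above all Control ovaries. Elovl5, an elongase of polyunsaturated chains, was at 1.40 (SE 0.35, adjusted p = 0.0268) in Aged vs Control and -1.45 (SE 0.38, adjusted p = 0.169) in Aged+CF vs Aged. Fads1 and Fads2, the desaturases of the same pathway, were at 1.30 (SE 0.25, adjusted p = 0.0111) and 1.20 (SE 0.25, adjusted p = 0.0140) in Aged vs Control. These 4 genes were chosen after their values were seen.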
